A study of Mus musculus with 6 samples.

Results

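The Hedgehog receptors and GLI factors were described through 10 genes, chosen by name from the 54532 genes of the count table. They cover the receptor Ptch1 and the decoy receptor Hhip, the co-receptors Boc, Cdon and Gas1, the transducers Smo and Sufu, and the transcription factors Gli1, Gli2 and Gli3. All 10 were among the 14801 genes with enough counts to be tested. The cells came from Gli1-CreERT2; tdTomato mice on a c57BL/6 background, 1 month old, taken 24 h after tamoxifen (TAM). CreERT2 is a recombinase that works once TAM is present, and here it is made from the Gli1 locus, so that the red reporter tdTomato marks cells in which that locus was active at the time of TAM. After removal of cells with CD45, CD31 or Ter119, markers of leukocytes, endothelium and red cell precursors, tdTomato+ cells (Gli1+ cells) and tdTomato- cells (Gli1- cells) were sorted from the same mice. Both populations therefore carry the same alleles and had the same TAM. RNA was sequenced as 3 libraries of each population, numbered 1 to 3. The study's methods place the cells in costal cartilage, digested overnight. The labels give growth plate as the tissue.

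Hedgehog ligands bind Ptch1, which otherwise holds the membrane protein Smo inactive. Released Smo acts in the primary cilium on complexes of Sufu with Gli2 and Gli3, which turns these factors from repressors of target genes into activators. Ptch1, Hhip and Gli1 are target genes of the pathway themselves, so that their transcripts are widely used as a readout of signalling. In growth cartilage the ligand is Indian hedgehog, made by chondrocytes that are about to become hypertrophic, and it acts on dividing chondrocytes and the perichondrium around them.

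The libraries held 17114101 to 18602482 counts. At least 1 count was obtained for 15000 genes in Gli1+ replicate 1 and for 20666 to 23360 genes in the other libraries. The chondrocyte genes Col2a1 and Acan were abundant in all libraries, at 2130 to 13534 and 591 to 2620 CPM (counts scaled to library size, here after TMM correction for composition). A list of 12 leukocyte markers summed to 3774 CPM in Gli1- replicate 1 and to 15.6 to 87.8 CPM in every other library. Ptprc, which encodes the CD45 used in the sort, stood at 54.7 CPM in Gli1- replicate 1 and at 1.11 CPM or less elsewhere. Of 5 superficial zone markers, all were lower in Gli1+ cells and 4 had an unadjusted p-value under 0.05, with summed levels of 1027 to 3429 CPM in Gli1+ and 5158 to 12220 CPM in Gli1- libraries. Clu gave most of these sums, at 837 to 3105 CPM in Gli1+ and 4635 to 11214 CPM in Gli1- libraries. Of the 5, only Cilp2 overlapped between the populations. In bulk RNA, fewer cells of a type and less RNA per cell cannot be told apart.

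Of the 10 genes, 4 had a log2FC (the log2 ratio of Gli1+ over Gli1- cells) above 0 and 6 below, where 50.1% of all genes lay above 0. With edgeR's quasi-likelihood test, a gene was called at an adjusted p-value under 0.05 and a |log2FC| over 1. None of the 10 was called, and 0% of all genes tested were. At the same thresholds the study did report differentially expressed genes between these populations, and its methods do not name the test. Among genes higher in Gli1+ cells it reported an enrichment of the Hedgehog pathway. At an unadjusted p-value under 0.05 stood 3 of the 10 (Gli1 and Hhip higher, Boc lower), against 3.47% of all genes (1.43% higher, 2.04% lower). With 1 library left out, this count of 3 became 6 without Gli1+ replicate 2, 1 without Gli1+ replicate 3 or Gli1- replicate 1, and 2 without any of the other libraries. The count over all genes moved as well, to 1199 of 15666 tested without Gli1+ replicate 2. It was 323 of 15520 without Gli1+ replicate 3 and 279 of 15733 without Gli1- replicate 1. Without any of the other libraries it was 482 to 511. Gli1, Hhip and Boc were also the members in which all libraries of one population lay above all of the other, which 8.49% of all genes did (4.04% higher, 4.45% lower). The median log2FC of all 10 members was -0.16, against 0.0013 over all genes. Within replicate numbers, 7 of the 10 had the same direction in all 3 numbers, as did 37.4% of all genes. Gli1, Gli3, Ptch1 and Hhip were higher and Boc, Cdon and Gas1 lower in the Gli1+ library of each number. Gli1 is among the 3 and the 7 members counted here, and among those named with a block below. The sort used a reporter switched on by CreERT2 made from the Gli1 locus, so that higher Gli1 in Gli1+ cells only checks the labels.

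**Figure D1:**
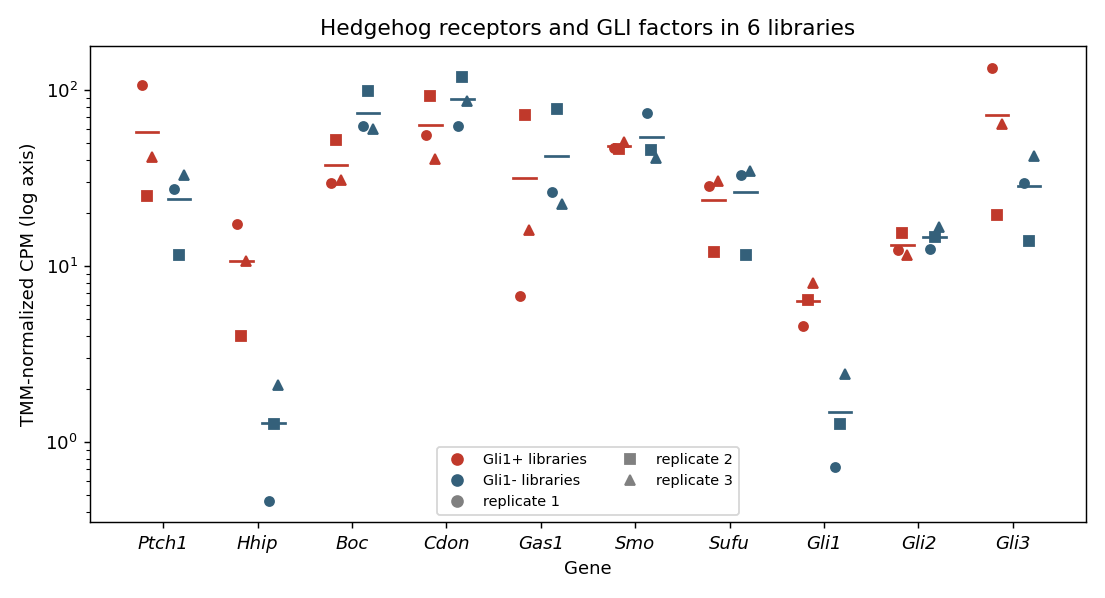
TMM-normalized CPM (log axis) of the 10 genes in the 3 Gli1+ and 3 Gli1- libraries, with the marker shape giving the replicate number and the short lines the means. Hhip and Gli1 stand higher in every Gli1+ library (3.99 and 4.55 CPM or more) than in any Gli1- library (2.12 and 2.43 CPM or less), and Boc stands lower.

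With all 6 libraries, Gli1, Hhip and Boc were called only by DESeq2 with the replicate number as a block. Values and tests are from the fit without the number unless a block is named. With the number as a block, edgeR called 0 genes, with a smallest adjusted p-value of 0.307, and gave 5 of the 10 members (Gli1, Gli3, Ptch1, Hhip and Boc) an unadjusted p-value under 0.05, as it gave 8.61% of all genes. DESeq2's Wald test with the same block called 428 of 14801 genes (2.89%, with 0.777% higher and 2.11% lower), and among them 3 of the 10 members, Gli1, Hhip and Boc. Without the block DESeq2 called 30 genes and none of the members.

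Hhip and Ptch1 act at the ligand. Their promoters are printed because both genes are classical outputs of the pathway and were higher in Gli1+ cells in all 3 replicate numbers. The letters are the 250 bases before the RefSeq start of transcription (GRCm38.p6), 5′ to 3′ on the gene's own strand, with CpG dinucleotides in capitals. The window of Hhip is chr8:80058009-80058258 and that of Ptch1 is chr13:63565736-63565985, both on the minus strand. The Ptch1 window lies 7863 bases inside the gene as the count table gives it.
Hhip: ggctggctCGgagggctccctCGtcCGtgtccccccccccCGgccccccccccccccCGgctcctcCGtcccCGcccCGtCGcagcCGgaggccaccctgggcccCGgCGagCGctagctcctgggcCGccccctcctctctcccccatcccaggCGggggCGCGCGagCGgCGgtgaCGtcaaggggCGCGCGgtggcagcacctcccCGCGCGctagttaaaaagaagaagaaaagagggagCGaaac
Ptch1: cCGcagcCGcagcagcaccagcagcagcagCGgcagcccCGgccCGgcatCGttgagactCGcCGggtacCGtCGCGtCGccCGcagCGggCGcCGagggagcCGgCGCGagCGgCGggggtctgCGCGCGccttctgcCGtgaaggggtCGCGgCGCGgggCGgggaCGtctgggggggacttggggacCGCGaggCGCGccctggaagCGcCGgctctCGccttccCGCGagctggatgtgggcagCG
The Ptch1 window holds 41 CpG dinucleotides and that of Hhip 28, against a median of 6 over 32851 windows of the same length. As many as in Ptch1 are found in 1.09% of these windows and as many as in Hhip in 7.61%. The GLI motif GACCACCCA was looked for on both strands of the windows of 8 members, since Gli1 and Boc have none in the reference used. It was in 0 of the 8, also with up to 1 mismatch, and in 0.225% of all windows (5.79% with up to 1 mismatch). This says only that these letters are not in these windows.

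Hhip (ENSMUSG00000064325, chromosome 8, 79965851 to 80058006, minus strand) encodes a membrane protein that binds Hedgehog ligands and keeps them from Ptch1. The Gli1+ libraries held 328, 65 and 204 counts (17.4, 3.99 and 10.7 CPM) for replicates 1, 2 and 3, and the Gli1- libraries held 9, 19 and 40 counts (0.465, 1.26 and 2.12 CPM). Every Gli1+ library lay above every Gli1- library, although the Gli1+ libraries themselves spread widely. The means of Gli1+ and Gli1- cells were 10.7 ± 6.68 and 1.28 ± 0.825 CPM (SD, n = 3 each), and the fitted difference was 8.31-fold. The log2FC of Hhip was 3.05 (standard error 0.82, 95% interval 1.18 to 4.93), with an adjusted p of 0.9999 and an unadjusted p of 0.00547 from edgeR's quasi-likelihood test. It was the highest log2FC among the 10 genes. The call by DESeq2 with the replicate block rested on an adjusted p of 0.00787 and a log2FC of 2.96. In the 21 alternatives the adjusted p for Hhip ranged from 1.8e-05 to 1.0. The lowest came from edgeR with the block and without replicate 1. That fit had 1 residual degree of freedom and called 1201 genes. The log2 ratios within replicate numbers 1, 2 and 3 were 5.22, 1.66 and 2.34. The value of 9 counts in Gli1- replicate 1 has an exact Poisson 95% interval of 4.12 to 17.1 counts, which covers counting error only. This library is also the one with leukocyte markers, and without it the log2FC of Hhip was 2.64.

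Ptch1 (ENSMUSG00000021466, chromosome 13, 63508328 to 63573598, minus strand), the receptor that holds Smo inactive, was more abundant than Hhip. The Gli1+ libraries stood at 107, 24.9 and 41.8 CPM and the Gli1- libraries at 27.4, 11.5 and 32.7 CPM. The populations overlapped, because Gli1+ replicate 2 lay under 2 of the Gli1- libraries. The means were 57.8 ± 43.2 CPM and 23.9 ± 11.03 CPM (SD, n = 3 each). The log2FC of Ptch1 was 1.27 (standard error 0.64, 95% interval -0.20 to 2.75), with an unadjusted p of 0.0819 from edgeR. Within replicate numbers the log2 ratio was 1.96, 1.11 and 0.35, each of them above 0. Gli1+ replicate 1 held the highest level, and without it the log2FC was 0.45. With the replicate block edgeR gave an unadjusted p of 0.0285 at a log2FC of 1.14, and DESeq2 did not call Ptch1 (adjusted p = 0.164, with a range of 0.0189 to 1.0 in the 21 alternatives). The low end of this range came from edgeR with the block and without replicate 1, on 1 residual degree of freedom.

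Boc, Cdon and Gas1 encode co-receptors at the cell surface that bind Hedgehog ligands together with Ptch1 and promote signalling. All 3 were lower in the Gli1+ than in the Gli1- library of each replicate number, but only Boc had populations that did not overlap. Boc (ENSMUSG00000022687, chromosome 16, 44485049 to 44558897, minus strand) stood at 29.4, 52.0 and 30.8 CPM in Gli1+ libraries and at 62.5, 98.8 and 59.9 CPM in Gli1- libraries. The means were 37.4 ± 12.6 CPM and 73.8 ± 21.7 CPM (SD, n = 3 each), a 1.97-fold lower level in Gli1+ cells. Its log2 ratios within numbers, -1.09, -0.93 and -0.96, lay closer together than those of any other member with the same direction in all 3 numbers. The log2FC of Boc was -0.98 (standard error 0.43, 95% interval -1.96 to -0.0031), with an adjusted p of 0.9999 and an unadjusted p of 0.0494 from edgeR. With the replicate block DESeq2 placed Boc just past both limits, with an adjusted p of 0.0466 and a log2FC of -1.004. The adjusted p ranged from 0.00013 to 1.0 in the 21 alternatives. The lowest came from edgeR with the block and without replicate 1, on 1 residual degree of freedom. The summed level of the superficial zone markers, most of it from Clu, did not overlap between populations either and was lower in Gli1+ cells. Of the perichondrium and fibroblast markers, only Pdgfra did not overlap, at 43.1 to 85.4 CPM in Gli1+ and 206 to 355 CPM in Gli1- libraries. The part of either set of markers in the result for Boc was not tested. Without Gli1- replicate 1, the library with leukocyte markers, the log2FC of Boc was -1.09.

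Cdon (ENSMUSG00000038119, chromosome 9, 35421128 to 35507652, plus strand), which is related to Boc in structure, stood at 55.3, 92.4 and 40.2 CPM in Gli1+ and 62.4, 118 and 86.8 CPM in Gli1- libraries. The populations overlapped. The log2FC of Cdon was -0.50 (standard error 0.46, 95% interval -1.56 to 0.55), with an unadjusted p of 0.301 from edgeR. Its log2 ratio was -0.17, -0.35 and -1.11 within numbers 1, 2 and 3. Gas1 (ENSMUSG00000052957, chromosome 13, 60174405 to 60177365, minus strand) encodes a co-receptor attached to the membrane by a lipid anchor. It stood at 6.77, 71.7 and 15.9 CPM in Gli1+ and 26.3, 78.1 and 22.3 CPM in Gli1- libraries. Both libraries of number 2 were high, and the spread between numbers exceeded the difference between populations. The log2FC of Gas1 was -0.43 (standard error 0.87, 95% interval -2.43 to 1.58). With Gli1- replicate 2 left out it was 0.35, with Gli1+ replicate 2 left out -1.91, and with the replicate block and all libraries -0.84. Within numbers 1, 2 and 3 the log2 ratio of Gas1 was -1.96, -0.12 and -0.49, and it stayed below 0 in the block with any number left out.

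**Figure D2:**
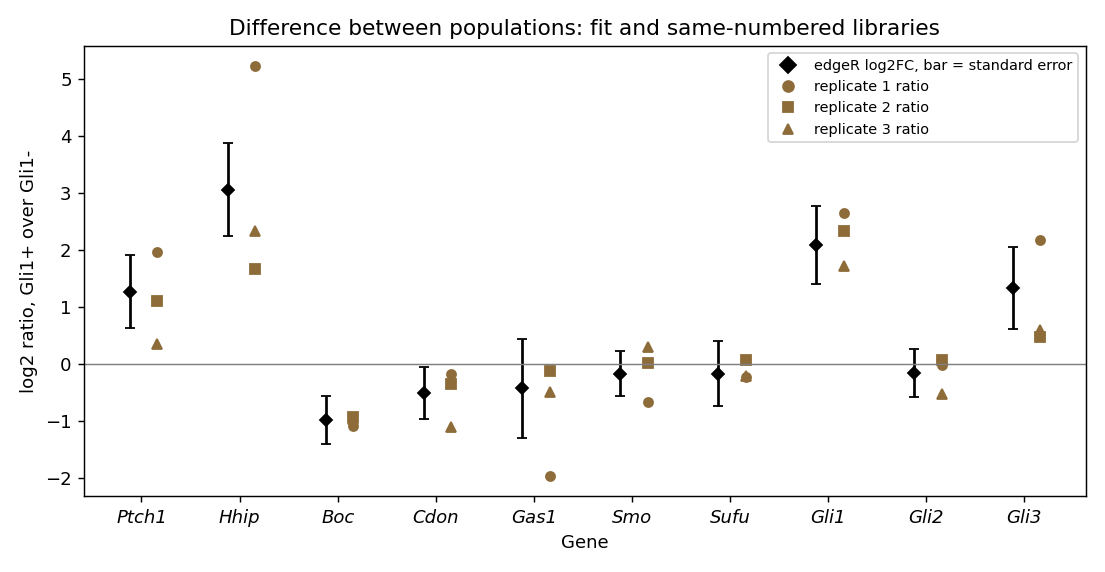
The log2 ratio of Gli1+ over Gli1- cells for the 10 genes, as fitted by edgeR (diamonds, bars giving the standard error) and as the ratio of TMM-normalized CPM within each replicate number (brown markers). The 3 ratios of Boc lie between -1.09 and -0.93, whereas those of Hhip run from 1.66 to 5.22.

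Smo and Sufu carry the signal from Ptch1 to the GLI factors. Smo (ENSMUSG00000001761, chromosome 6, 29735503 to 29761365, plus strand), the membrane protein that Ptch1 holds inactive, stood at 46.5, 46.4 and 50.6 CPM in Gli1+ libraries and at 73.8, 45.8 and 41.1 CPM in Gli1- libraries. Apart from Gli1- replicate 1, the library with leukocyte markers, all values lay between 41.1 and 50.6 CPM. The log2FC of Smo was -0.16 (standard error 0.39) in the fit without the block. The 95% interval of that fit, -1.06 to 0.73, left out a 2-fold rise in Gli1+ cells but not a 2-fold fall. With the replicate block edgeR gave a log2FC of -0.115 and a smaller standard error of 0.30. Without Gli1- replicate 1 and without the block the log2FC was 0.13. Sufu (ENSMUSG00000025231, chromosome 19, 46396896 to 46488804, plus strand) encodes a protein that binds GLI factors and restrains them. It stood at 28.4, 12.04 and 30.2 CPM in Gli1+ and 33.0, 11.5 and 34.7 CPM in Gli1- libraries. The libraries of each number lay close together, at log2 ratios of -0.22, 0.069 and -0.20, while number 2 was low in both populations. The log2FC of Sufu was -0.16 (standard error 0.57, 95% interval -1.47 to 1.14). With the replicate block edgeR gave -0.12 with a smaller standard error of 0.27.

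Gli1 (ENSMUSG00000025407, chromosome 10, 127329882 to 127341974, minus strand) encodes an activator and is itself a target of the pathway. It also served as a check of the labels, because its locus drives the CreERT2 that switches on the reporter. Gli1 stood at 4.55, 6.39 and 7.98 CPM in Gli1+ and at 0.724, 1.26 and 2.43 CPM in Gli1- libraries. These came from 86, 104 and 152 against 14, 19 and 46 counts. The populations did not overlap, in the direction that the labels give. Its means were 6.31 ± 1.72 CPM and 1.47 ± 0.874 CPM (SD, n = 3 each). The log2FC of Gli1 was 2.09 (standard error 0.68, 95% interval 0.52 to 3.66), with an adjusted p of 0.9999 and an unadjusted p of 0.0152 from edgeR. In DESeq2 with the replicate block the adjusted p for Gli1 was 0.0189 and the log2FC 2.21, and in the 21 alternatives the adjusted p ranged from 2.0e-05 to 1.0. The lowest came from edgeR with the block and without replicate 1, on 1 residual degree of freedom. With 14 to 46 counts, Gli1 transcripts were counted in the sorted tdTomato- cells too. Gli1 overlaps Arhgap9 on the opposite strand, and the use of strand in counting is not given in the sources used here, so that reads of the pair may have been mixed. Arhgap9 held 621 counts in Gli1- replicate 1, in which Gli1 was lowest, and 0 to 13 counts in the other libraries. Without Gli1- replicate 1 the log2FC of Gli1 was 1.76.

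Gli2 and Gli3 encode the factors that are switched between activator and repressor forms by the signal. Gli2 (ENSMUSG00000048402, chromosome 1, 118834132 to 119053619, minus strand) stood at 12.4, 15.4 and 11.5 CPM in Gli1+ and 12.5, 14.5 and 16.6 CPM in Gli1- libraries. It varied least of the 3 GLI factors, and the log2FC was -0.15 (standard error 0.42, 95% interval -1.11 to 0.81). Gli3 (ENSMUSG00000021318, chromosome 13, 15463235 to 15730026, plus strand), known above all as a repressor, stood at 133, 19.3 and 63.6 CPM in Gli1+ and 29.6, 13.9 and 42.1 CPM in Gli1- libraries. Like Ptch1 it was highest in Gli1+ replicate 1, lowest in both libraries of number 2 and higher in the Gli1+ library of each number, while the populations overlapped. The log2FC of Gli3 was 1.34 (standard error 0.72, 95% interval -0.31 to 2.99), with an unadjusted p of 0.0979 from edgeR, and 0.52 without Gli1+ replicate 1. Its ratio within numbers was 2.17, 0.48 and 0.60 on the log2 scale.

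**Figure D3:**
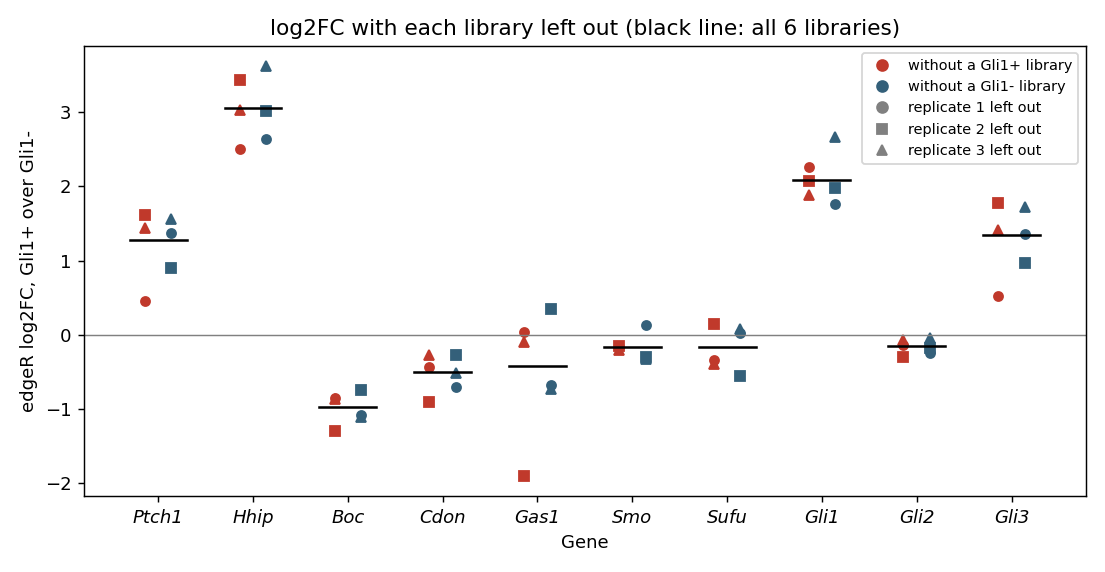
The log2FC from edgeR for the 10 genes with each library left out in turn (coloured markers) and with all 6 libraries (black lines). Hhip stays between 2.51 and 3.62 and Gli1 between 1.76 and 2.66, Ptch1 and Gli3 drop to 0.45 and 0.52 without Gli1+ replicate 1, and the values of Gas1, Smo and Sufu lie on both sides of 0.

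To compare the genes with each other, levels were divided by gene length (CPM per kilobase, here the mean ± SD of 3 libraries). In Gli1- cells Boc led at 16.6 ± 4.88, followed by Gas1 at 14.3 ± 10.5, Cdon at 11.5 ± 3.58 and Smo at 9.53 ± 3.15, neighbours whose ranges overlapped. Sufu (3.80 ± 1.86), Gli3 (2.97 ± 1.47), Gli2 (2.12 ± 0.294) and Ptch1 (1.68 ± 0.778) overlapped among themselves. Hhip and Gli1 were lowest, at 0.141 ± 0.0909 and 0.295 ± 0.175. In Gli1+ cells Gas1 (10.6 ± 11.9), Smo (8.51 ± 0.431), Boc (8.40 ± 2.84), Cdon (8.12 ± 3.48) and Gli3 (7.52 ± 6.00) lay within each other's spread. Ptch1 stood at 4.07 ± 3.04, Sufu at 3.39 ± 1.44 and Gli2 at 1.90 ± 0.294. Gli1 and Hhip were again lowest, at 1.26 ± 0.344 and 1.18 ± 0.736, and overlapped. The order was not the same in every library. In Gli1+ replicate 1 Gli3 was highest at 13.9, Ptch1 stood at 7.52 and Hhip at 1.91, above Gli2 at 1.80, and the mean of Gas1 rested on 24.2 in Gli1+ replicate 2.

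Ratios within a library do not depend on the scaling between libraries. Among the 3 GLI factors per length, Gli1 made up 5.48%, 23.1% and 16.1% in the Gli1+ libraries and 2.87%, 6.62% and 6.69% in the Gli1- libraries. Its share was higher in the Gli1+ library of each number, although Gli1+ replicate 1, rich in Gli3, lay within the Gli1- range. The 95% Clopper-Pearson interval from counts alone was 4.41 to 6.70% in Gli1+ replicate 1 and 1.58 to 4.75% in Gli1- replicate 1. The means were 14.9 ± 8.88% and 5.39 ± 2.18% (SD, n = 3 each, 2-sided exact permutation test, p = 0.3, adjusted p = 0.6 over 8 ratios). This test treats the 6 libraries as independent and does not use the replicate numbers. No such test of 3 against 3 can go below 0.1. The share of Gli2 was 22.7 ± 15.6% in Gli1+ and 41.5 ± 12.1% in Gli1- cells, and lower in the Gli1+ library of each number (exact permutation test, p = 0.3). Gli3 had the largest mean share in both populations, at 62.4 ± 23.9% and 53.1 ± 13.1% (exact permutation test, p = 0.6). In both libraries of number 2 it made up less, 36.5% and 37.9%, than Gli2, at 40.4% and 55.5%.

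The ratio of Ptch1 to Smo per length, on the log2 scale, was -0.14, -2.23 and -1.61 in the Gli1+ libraries and -2.77, -3.32 and -1.66 in the Gli1- libraries. Per length Smo was the more abundant in all 6 libraries, whereas by CPM Ptch1 was in Gli1+ replicate 1 (107 against 46.5 CPM). The ratio was higher in the Gli1+ library of each number. The difference between the means of -1.33 ± 1.08 and -2.58 ± 0.845 had a p of 0.2 in the exact permutation test (SD, n = 3 each, adjusted p = 0.6 over the 8 ratios). Of the 3 co-receptors, Boc made up 35.01 ± 9.23% in Gli1+ and 40.6 ± 5.35% in Gli1- cells and was the lower in each number (exact permutation test, p = 0.5). Cdon made up 33.2 ± 10.2% and 28.3 ± 5.81% (p = 0.6) and Gas1 31.8 ± 18.2% and 31.1 ± 9.24% (p = 0.9, exact permutation tests). For each of the 8 ratios the populations overlapped.

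**Figure D4:**
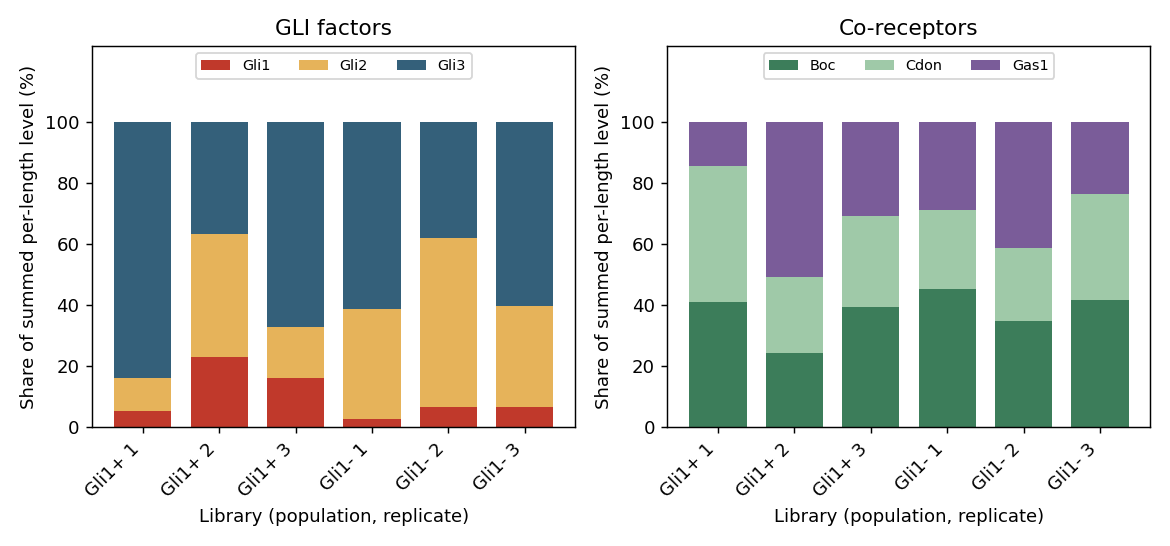
Shares of the summed per-length level (%) of the 3 GLI factors (left) and of the 3 co-receptors (right) in each library. Gli1 ranges from 5.48 to 23.1% in Gli1+ and from 2.87 to 6.69% in Gli1- libraries, and Gas1 is largest in both libraries of number 2.

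The members were also compared between replicate numbers. An F-test between the 3 numbers in edgeR, chosen after seeing the data, gave an unadjusted p-value under 0.05 for 4 of the 10 genes, as it did for 25.5% of all genes, and passed 0 genes after adjustment. Those 4 were Gas1, Sufu, Gli3 and Ptch1, in this order from the smallest p-value, and their adjusted p-values in edgeR lay between 0.0988 and 0.165. Number 2 had the lowest Gli3, Ptch1 and Sufu and the highest Gas1 in both populations. The same libraries were highest in the sum of 10 chondrocyte markers, to which Col2a1 gave the most, at 19394 CPM in the Gli1+ library and 25734 CPM in the Gli1- library against 6154 to 8158 CPM in the others. Within each population they were lowest in Acan and Sox9 of that list, at 677 and 223 CPM in the Gli1+ library and at 591 and 365 CPM in the Gli1- library. Perichondrium and fibroblast markers too had their highest sum within each population in number 2 (Gli1+ 3910 CPM, Gli1- 9633 CPM). So did hypertrophic (8345 and 9578 CPM), superficial zone (3429 and 12220 CPM), skeletal muscle (35.9 and 25.3 CPM) and erythroid markers (4.79 and 19.1 CPM). Leukocyte and endothelial markers did not. Whether any of these differences between numbers has a part in the levels of the 4 genes was not tested.

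**Figure D5:**
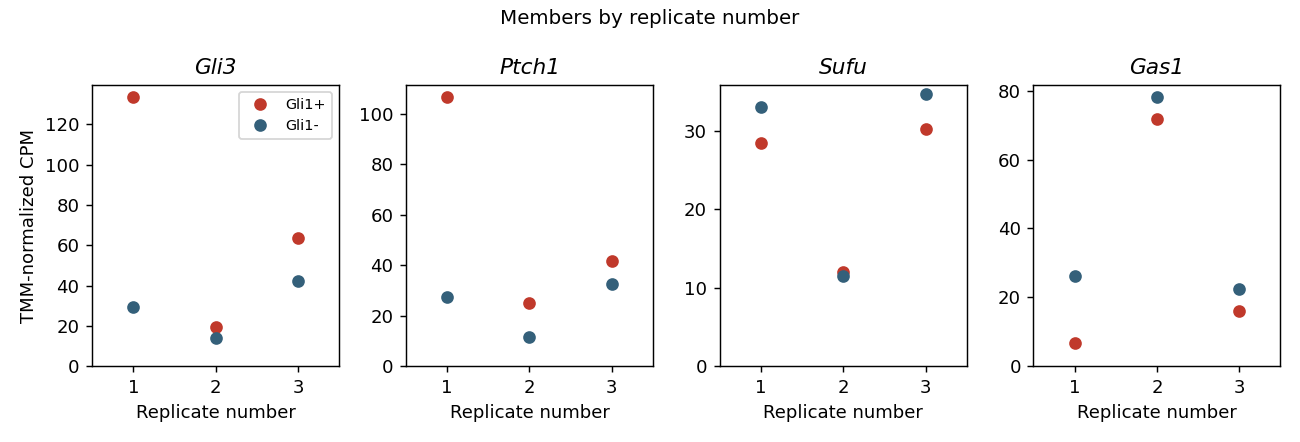
TMM-normalized CPM of the 4 members with an unadjusted p-value under 0.05 between replicate numbers, by number, in Gli1+ and Gli1- libraries. Number 2 is lowest for Gli3, Ptch1 and Sufu (11.5 to 24.9 CPM) and highest for Gas1 (71.7 and 78.1 CPM).

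For Gli1, Ptch1 and Hhip, the 3 genes with the most similar pattern over the 6 libraries were listed by the root mean square difference in log2 CPM after centring each gene on its mean. For Ptch1 these were Dcp2 (0.101), Zfp369 (0.152) and Dkc1 (0.156), and Gli3 came at place 61 (0.297). For Gli1 they were Fam166b (0.337), Unc80 (0.346) and Gm16685 (0.367). For Hhip they were Kif26b (0.393), Tenm2 (0.450) and Ankrd6 (0.486), with Gli1 at place 61 (0.859) and Ptch1 at place 443 (1.18). By this measure Ptch1 was closer to Gli3 than to the other target genes Gli1 (1.10) and Hhip. The measure also grows with unlike sizes of a difference and with counting error at low counts. The log2FC was 2.09 for Gli1 and 3.05 for Hhip, against 1.27 for Ptch1 and 1.34 for Gli3.

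The other genes of the pathway were taken from 5 lists of ligands, surface proteins, cilium proteins, GLI processing enzymes and target genes, 64 genes in all, of which 56 were tested. Of these, 25 had a log2FC above 0 and 31 below, with a median of -0.049, and 0 passed the adjusted test. The ligand genes were scarce. Ihh, the ligand of growth cartilage, held 0, 29 and 10 counts in Gli1+ and 3, 12 and 4 counts in Gli1- libraries, which gave a log2FC of 0.99 (standard error 1.49). Shh had 0 counts in all 6 libraries, which allows up to 3 counts in each, and Dhh held 2 to 18 counts, too few to be tested. The most abundant genes of the ligand list were Scube3 (log2FC 0.22, standard error 0.41) and Scube1 (log2FC -0.014, standard error 0.42), which encode secreted proteins that help to release the ligand. Of the 6 genes tested in that list, 3 lay above and 3 below 0.

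Among surface modulators, 3 of 6 lay above 0. The most abundant were Gpc6, a glypican, at 47.4 ± 30.1 CPM in Gli1+ against 128 ± 97.1 CPM in Gli1- cells (log2FC -1.43, standard error 0.66), and Mgrn1, a ubiquitin ligase, at 49.3 ± 8.03 and 67.7 ± 8.36 CPM (SD, n = 3 each, log2FC -0.46, standard error 0.36). DESeq2 with the replicate block called Gpc6 lower in Gli1+ cells at a log2FC of -1.36. At the cilium 5 of 12 genes lay above 0, and the most abundant, Grk2 and Dyrk2, had a log2FC of -0.46 and -0.093 (standard errors 0.45 and 0.43). Of 19 GLI processing enzymes 8 lay above 0, with a median log2FC of -0.12. Prkar1a, a subunit of protein kinase A, and Csnk1a1, a casein kinase, stood at 354 ± 4.73 and 336 ± 65.7 CPM in Gli1+ cells and at 363 ± 21.4 and 366 ± 57.1 CPM in Gli1- cells (SD, n = 3 each), with a log2FC of -0.033 and -0.12.

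The 13 tested target genes beside Gli1, Ptch1 and Hhip did not move one way. Of these, 6 lay above and 7 below 0, with a median log2FC of -0.35. An unadjusted p-value under 0.05 was found for 2 of the 13, in opposite directions, against 3.47% of all genes. Ccnd1, which encodes the cell cycle protein cyclin D1, stood at 181, 60.2 and 99.2 CPM in Gli1+ and at 67.3, 20.6 and 36.2 CPM in Gli1- libraries. It was higher in each number, although the populations overlapped (log2FC 1.46, standard error 0.59, unadjusted p = 0.0381, edgeR). Cntfr, a cytokine receptor gene, stood at 3.02, 5.65 and 2.63 CPM in Gli1+ and at 10.5, 14.5 and 7.19 CPM in Gli1- libraries, with no overlap (log2FC -1.51, standard error 0.57, unadjusted p = 0.0285, edgeR). DESeq2 with the replicate block called both, Ccnd1 at a log2FC of 1.47 and Cntfr at one of -1.55. It also called the target gene Igfbp6 lower in Gli1+ cells, at a log2FC of -1.66. Over all genes it called 0.777% higher and 2.11% lower. The most abundant target genes on the list, Ccnd2 and Foxf1, had a log2FC of 0.73 and 1.10 with standard errors of 0.81 and 0.60.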

How the data were processed

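The authors deposited counts, whole numbers of reads per gene in each of the 6 libraries, without normalization or pooling. The submitters' processing notes name HISAT2 2.0.5, featureCounts 1.5.0-p3 and mm10, and the mRNA was selected with poly-T beads. The use of strand is not given in the sources used here. Groups came from the labels, which do not say that libraries are from separate animals, so that p-values measure only the spread between these libraries.

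Low genes were removed by filterByExpr at a minimum count of 10, and libraries were scaled by TMM. The test was the quasi-likelihood test of edgeR 4.0.16 (R 4.3.3), and its p-values were Benjamini-Hochberg adjusted across the 14801 genes that remained. The thresholds, an adjusted p-value under 0.05 and a |log2FC| over 1, are those of the study's methods. The 6 libraries entered as independent samples. Alternatives were a block for the replicate number, DESeq2 1.42.0, limma-voom (limma 3.58.1), other scalings and filters, and leaving out each library. As a check of pairing, each library's deviations from the mean of its population were correlated with those of the library of the same number, which gave 0.223, 0.720 and 0.471 across genes, all over 0.1. Unlike numbers gave -0.616 to 0.274, the highest for Gli1+ replicate 1 with Gli1- replicate 3. According to the study, Gli1+ and Gli1- cells were from the same mice. The F-test between numbers, edgeR's newer quasi-likelihood fit, limma-voom with the block and DESeq2's alpha of 0.1 were chosen after seeing the data.

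The members and lists were chosen with earlier results of these data known. The text names all members, Ihh, list genes at an unadjusted p-value under 0.05, of each pathway list the 2 tested genes highest in CPM, the 3 genes most like Gli1, Ptch1 and Hhip, and Col2a1, Acan, Col1a1 and Ptprc. A further gene that the rule names is not reported here. Shh, Dhh, Arhgap9, Sox9, Mmp13, Col10a1, Clu, Cilp2 and Pdgfra, and the list genes given as calls of an alternative, were added after their values were seen. Gene coordinates are those of the count table, and all 10 members had the same coordinates in GENCODE M21 (GRCm38). Promoter sequences are RefSeq's (GRCm38.p6), matched by symbol for 8 of 10 members. Intervals of counts and shares cover counting error only. The scripts were tested on simulated data with known changes and a smaller spread between libraries than in these data. That test therefore does not give the share of true changes found in these data.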

Additional observations from a re-analysis of the deposited data

How the results depend on the processing

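Over 18 alternatives set in advance and 3 added, 202 of the 210 values of the 10 members kept the direction of their log2FC. The values that turned were those of Gas1 without Gli1+ replicate 1 (0.033) and without Gli1- replicate 2 (0.35), of Sufu without Gli1+ replicate 2 (0.14), Gli1- replicate 1 (0.021) and Gli1- replicate 3 (0.079), of Smo without Gli1- replicate 1 (0.13) and without replicate 1 under the replicate block (0.15), and of Gli2 without replicate 3 under the block (0.040). Among shares within a library, the difference between populations turned to -1.35 percentage points for Gli3 and -0.87 for Cdon without Gli1+ replicate 1. For Gas1 it turned to -8.64 without Gli1+ replicate 2, -0.52 without Gli1- replicate 1 and -3.14 without Gli1- replicate 3. Leaving out 1 library gave lowest or highest values of -1.91 for Gas1, -0.56 for Sufu and -0.32 for Smo at the other end of their ranges, and of 22.3 (Gli3), 8.94 (Cdon) and 9.53 (Gas1) percentage points for the shares. With 1 library left out and no block, edgeR called 0 genes, while 279 to 1199 had an unadjusted p-value under 0.05.

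Counts of calls rose from 0 in 5 alternatives. When low counts were kept, 267 genes passed in edgeR (20 higher, 247 lower), 1 of them in the pathway lists (Arrb2) and none a member. DESeq2 called 30 (15 higher, 15 lower) without members. With the replicate block DESeq2 called 428 (115 higher, 313 lower), with 3 members and 4 genes of the pathway lists (Gpc6, Ccnd1, Igfbp6 and Cntfr), and at an alpha of 0.1 it called 414, again with 3 members and 4 list genes. Without replicate 1 and with the block, edgeR called 1201 genes (485 higher, 716 lower), with 2 members (Gli1 and Hhip) and 7 list genes, on 1 residual degree of freedom. Without replicate 2 or 3 the block gave 0. The replicate block in edgeR and in limma-voom with all libraries called 0 genes, with 1274 and 1640 at an unadjusted p-value under 0.05, as the fit without pairing called 0, with 514. The cause of these differences was not tested.

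Counts of 9 to 46 for Hhip and Gli1 in Gli1- cells limit the precision of their fold changes. The coefficient of variation between libraries was 0.662, and 0.466 with the block.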

Other observations

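The other marker lists give the setting of the 10 genes. Summed levels of 9 perichondrium and fibroblast genes lay at 1649 to 3910 CPM in Gli1+ and 2161 to 9633 CPM in Gli1- libraries, with 1 of 9 genes above 0 and a median log2FC of -1.29. An unadjusted p-value under 0.05 from edgeR was found for 1 of the 9, against 3.47% of all genes. Col1a1 among them ranged from 10.9 to 246 CPM in Gli1+ and from 39.9 to 643 CPM in Gli1- libraries. Only Pdgfra did not overlap, at 43.1 to 85.4 CPM in Gli1+ and 206 to 355 CPM in Gli1- libraries. Hypertrophic chondrocyte genes summed to 6573 to 8345 CPM in Gli1+ and 2247 to 9578 CPM in Gli1- libraries, with 2 of 6 genes above 0. Mmp13 gave much of the sum in Gli1+ libraries (2861 to 5328 CPM, against 457 to 607 CPM in Gli1- libraries), while Col10a1 stood at 34.6 to 285 CPM in Gli1+ and 161 to 1781 CPM in Gli1- libraries. The lists of endothelial, erythroid and skeletal muscle markers reached at most 4.41, 4.79 and 35.9 CPM in Gli1+ and 18.4, 19.1 and 25.3 CPM in Gli1- libraries. None of the genes of these lists was called by edgeR.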
